A study of Mus musculus with 6 samples.

Results

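The genes described here encode the translation initiation and elongation factors of the mouse, with their direct binding repressors and modifying enzymes. They were taken as all protein-coding genes whose symbols begin with Eif1 to Eif6, Eef1 or Eef2, without the eIF2 alpha kinases, which gave 64 of the 54532 genes in the table. Marrow of female CByB6F1 mice aged 2 to 5 months with immune bone marrow failure was enriched for CD8+ cells on microbeads, and the messenger RNA of 6 libraries was counted. In 3 libraries the mice had been treated with ruxolitinib, an inhibitor of the Janus kinases JAK1 and JAK2, and in the other 3 they had the same disease and were untreated. Cells of 2 to 3 mice of the same group were pooled for each library. The treated pools carry the numbers 1 to 3 and the control pools 4 to 6. Dose and duration of treatment are not stated in the sources used here. The libraries held 13829808 to 17708196 counts. Values below are CPM, the reads of a gene per 1000000 counts of the library after scaling of the libraries, and a gene is called higher or lower where edgeR's quasi-likelihood test gave a Benjamini-Hochberg adjusted p under 0.05 over the 13480 genes tested.

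Translation begins when eIF2 brings the initiator tRNA to the small ribosomal subunit, eIF3 holds that subunit ready, and the cap-binding complex eIF4F attaches it to the messenger. Elongation then cycles between eEF1A, which delivers aminoacyl-tRNA, and eEF2, which moves the ribosome along. In T cells these factors are known to rise on activation, when cells begin to grow, and their activity is set by phosphorylation through mTOR, the eIF2 alpha kinases and eEF2 kinase.

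Most factor genes that differed were lower in the ruxolitinib libraries relative to the whole library, and a few, led by the kinase gene Eef2k, were higher. Relative to CD8 T cell markers none was called lower, and those few were called higher again. That second scale raises genes in general, so it lends no separate support to the rises. Of the 64 genes, 59 passed the filter on low counts. Among them 28 were called lower (47.5%, against 25.3% of all genes tested) and 6 higher (10.2%, against 29.9%), and 25 passed the test in neither direction. The median log2 fold change of the 59 was -0.55, against 0.03 over all genes tested, and 13 of the 59 lay above that all-gene median. In 32 genes (54.2%) all 3 ruxolitinib libraries were below all 3 controls, which held for 30.3% of all genes, and in 9 (15.3%, against 35.7%) they were all above.

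**Figure D1:**
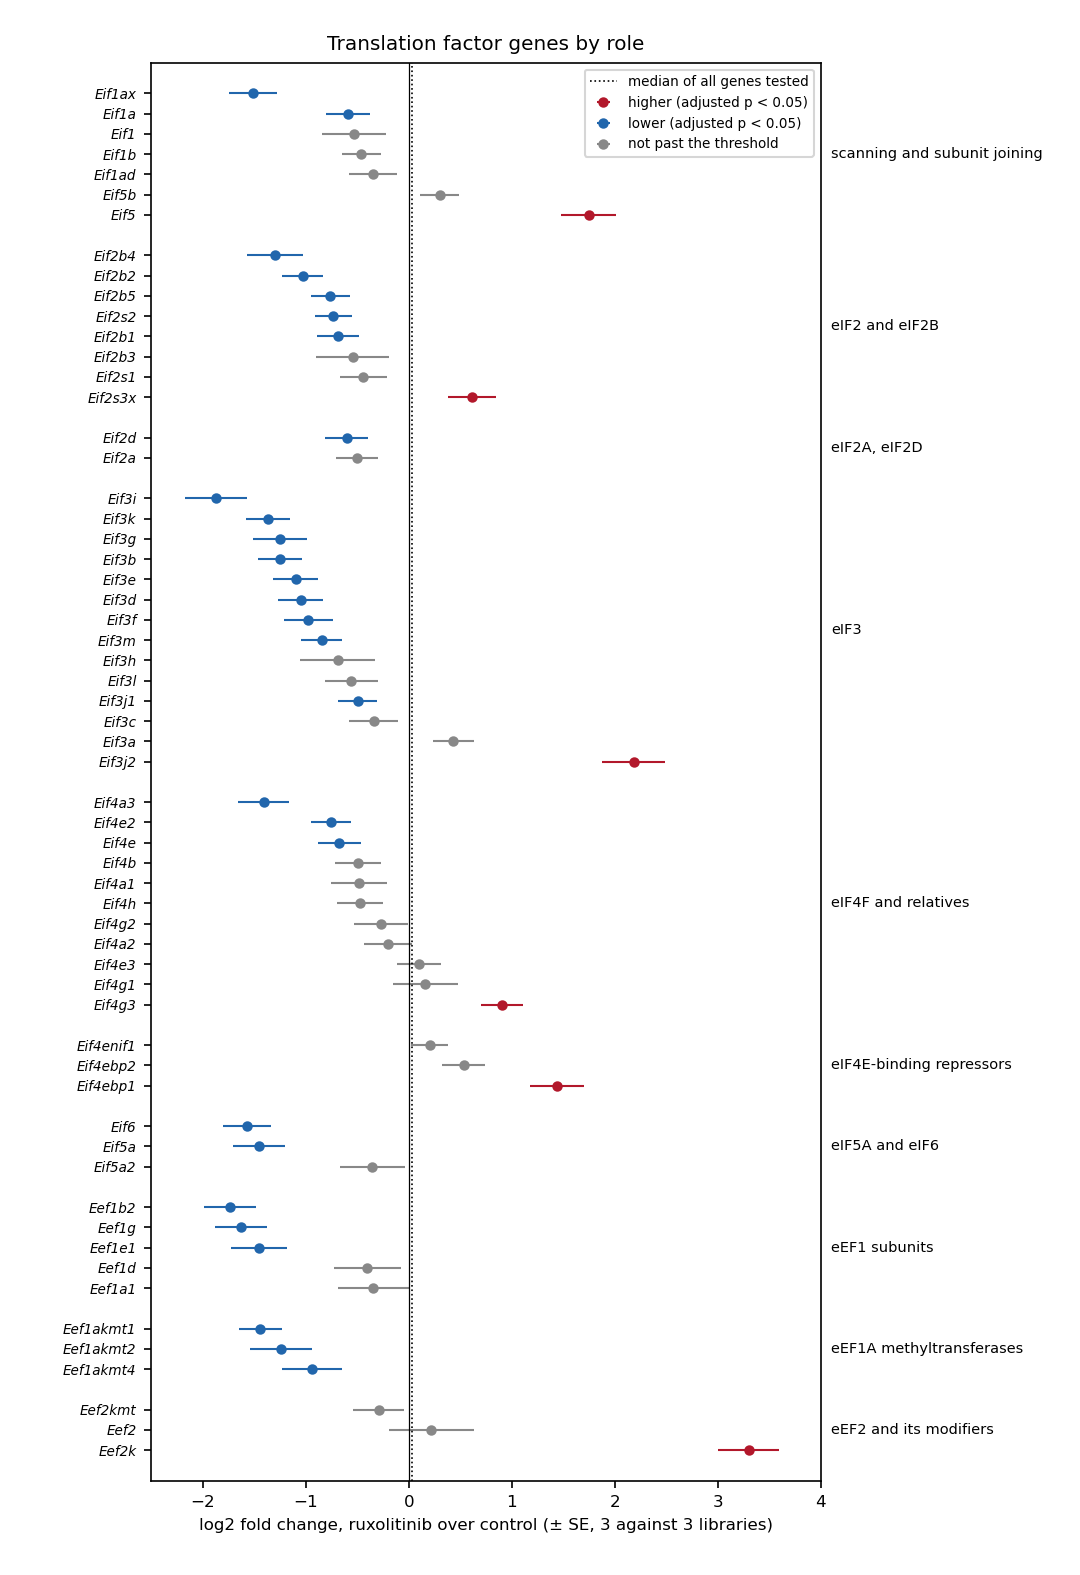
Log2 fold change of each of the 59 tested factor genes (x axis, ruxolitinib over control, ± SE from edgeR, 3 against 3 libraries), grouped by role on the y axis; red points were called higher, blue points lower, and the dotted line is the median of all genes tested. Blue points fill much of the eIF3, eIF2B and eEF1 groups and the 6 red points fall in 6 different groups. Relative to CD8 T cell markers, as described in the text, no point would be called lower, against 0.445% of all genes.

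The direction of these changes depends on what each library is scaled to. The summed level of 17 CD8 T cell markers was 1873 to 5379 CPM in the ruxolitinib libraries and 10590 to 12932 CPM in the controls, and 16 of the 17 were called lower, among them Cd8a, at a log2 fold change of -1.72. All 12 tested erythroid markers were called higher, with sums of 125392 to 245763 CPM against 1864 to 2691 CPM, as were all 12 monocyte and macrophage markers, with 8530 to 14138 CPM against 1114 to 1510 CPM, and all 9 B cell markers, with 1067 to 1652 CPM against 210 to 271 CPM. Granulocyte markers were called higher in 6 of 9 cases and lower in 1, dendritic cell markers higher in 4 of 7 and lower in 1, and stromal and endothelial markers higher in 7 of 8, and no marker of any list was at 0 in every library. In such bulk libraries, fewer cells of a type and less RNA per cell cannot be told apart, and the part of these other cells in the results below was not tested. With each library scaled to the 17 CD8 markers, the median of all genes moved to 2.04 and that of the factor genes to 1.46, so that 39 were called higher (against 71.2% of all genes) and 0 lower (against 0.445%). That scaling shifts every gene by about the same amount, and the factor genes again had a median below that of all genes, by 0.58 on the log2 scale, with 13 of 59 above it. Each fall described below is therefore a fall relative to the whole library, and none was called relative to the CD8 markers. With that scaling the SE of the factor genes was large, from 0.57 for Eif3i to 0.69 for Eif3j2. Small positive values relative to the CD8 markers therefore do not show that a fall was absent. The 6 rises were called under both. Because the CD8 scaling raised genes in general, neither outcome is separate support for the rises or against the falls. A count of 0 called lower with that scaling, given for groups below, stands beside 0.445% of all genes. It therefore says little about any group.

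The factor genes together took 1.65%, 1.73% and 2.32% of all counts in ruxolitinib pools 1 to 3, and 3.00%, 2.79% and 1.98% in control pools 4 to 6. These ranges overlapped, because control pool 6 lay below ruxolitinib pool 3. Eef1a1 and Eef2 alone made up 0.862% to 1.32% of counts in the ruxolitinib libraries and 0.574% to 1.49% in the controls. Without that pair, the shares were 0.789%, 0.862% and 0.997% in the ruxolitinib libraries (mean 0.883% ± 0.106, SD, n = 3) and 1.51%, 1.52% and 1.41% in the controls (1.48% ± 0.0604, SD, n = 3), and the groups did not overlap. Haemoglobin genes took 13.4% to 22.6% of counts in the ruxolitinib libraries and 0.178% to 0.258% in the controls.

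Control pool 6 stood apart from the other controls. Of the 59 genes, 7 differed there by more than 2-fold from the mean log2 level of the other two controls, against 0 in each of the other 5 libraries, and 13.0% of all tested genes did so, against 1.86% to 5.27% elsewhere. Eef2 was 3.16-fold below the other controls in that pool, Eif3h 2.65-fold, Eif2b3 2.40-fold, Eif4g1 2.36-fold, Eef1d 2.18-fold and Eef1a1 2.12-fold, and Eif5a2 was 2.05-fold above. Without that library, 37 factor genes were called lower, against 27.4% of all genes, and 5 higher, against 32.1%. Among the ruxolitinib libraries, pool 3 had the highest sum of CD8 markers and the lowest haemoglobin share. It was the lowest of the 3 ruxolitinib pools in 4 of the 6 genes called higher and the highest in 11 of the 28 called lower. The same counts over all called genes were not made, and a link between these orders was not tested.

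**Figure D2:**
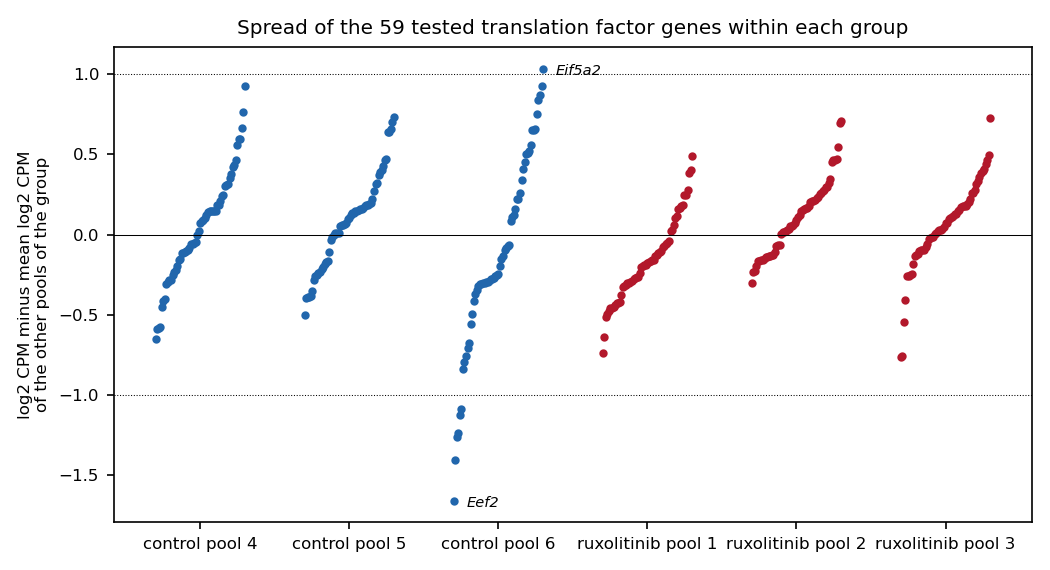
Each point is a tested factor gene, placed by its log2 CPM in a library minus the mean log2 CPM of the other two libraries of that group (y axis), for the 6 libraries (x axis); dotted lines mark 2-fold. Control pool 6 holds all 7 genes beyond the dotted lines, from Eef2 at -1.66 to Eif5a2 at 1.04.

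The other 5 of the 64 genes were too low to test. No read was counted for Eif2s3y, the Y-linked gene of the eIF2 gamma subunit, or for Eif4e1b, a cap-binding protein of oocytes. Eef1a2, the eEF1A form of muscle and neurons, had 1 read in all, in ruxolitinib pool 3. Eef1akmt3, an eEF1A methyltransferase, had 3 reads over the 6 libraries, and Eif4ebp3 had 7, all in ruxolitinib pools 2 and 3. Reads of Eif4ebp3 share 1858 bases with Ankhd1 on the same strand, so their origin is uncertain.

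By level per kilobase of the deposited gene length, averaged over both groups, Eef1a1 came first at 3002 CPM per kb, followed by Eef2 at 923, Eif5a at 513, Eef1g at 376, Eef1b2 at 364 and Eif1 at 315. The lowest tested gene was Eif2b3, at 1.77 CPM per kb. The most abundant genes therefore belonged mainly to elongation, and Eif1, Eif3f and Eif3h, at 315, 227 and 223 CPM per kb, were the highest of the initiation genes.

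The promoters of several of these genes hold the palindromic E-box CACGTG, the letters bound by MYC with MAX and by other factors of that family, and windows around it are shown because genes called higher, lower and in neither direction carry it. The RefSeq promoter table (GRCm38.p6) covers 300 bases per start site, of which 250 lie before the start. It held 48 of the 64 genes, and 13 of these (27.1%) had the E-box, against 11.8% of the 9805 tested genes with an entry and 8.09% of all 27025 genes in the table. The motif is its own reverse complement, so a search of either strand finds the same sites. It was found in 1 of the 4 genes called higher that had an entry, 5 of the 22 called lower, 7 of the 20 called in neither direction and 0 of the 2 not tested. The E-box was therefore found beside genes called higher, lower and in neither direction, and a match is a description of letters, not of binding. Each window is written 5′ to 3′ on the strand of the gene, with the E-box in capitals. For Eef2k, the gene with the largest rise, the window is chr7:120842783-120842822 on the plus strand, with the E-box 31 bases before the start. The other windows shown, a selection, are Eef2, its substrate, at chr10:81176571-81176610 (plus, 43 bases before), Eif4g1 at chr16:20672656-20672695 (plus, 54 bases), Eif4e at chr3:138527187-138527226 (plus, 64 bases), Eif3f at chr7:108934330-108934369 (plus, 68 bases), Eif3k at chr7:28981910-28981949 (minus, 44 bases) and Eif5a at chr11:69921438-69921477 (minus, 74 bases before a RefSeq start). The Eif5a window lies within the span of that gene given below, so it precedes an internal start and not the whole gene. Sites not shown include those of Eef1akmt4, Eif1b, Eif4a1, Eif4h and Eif5a2 and further sites of Eif4e and Eif5a.
Eef2k: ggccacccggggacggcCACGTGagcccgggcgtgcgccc
Eef2: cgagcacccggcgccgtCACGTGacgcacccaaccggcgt
Eif4g1: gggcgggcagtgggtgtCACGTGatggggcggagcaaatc
Eif4e: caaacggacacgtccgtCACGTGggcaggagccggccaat
Eif3f: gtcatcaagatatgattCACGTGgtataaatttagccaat
Eif3k: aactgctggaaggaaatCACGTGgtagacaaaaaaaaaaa
Eif5a: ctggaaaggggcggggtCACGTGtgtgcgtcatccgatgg

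Of these genes, Eef2k was called higher, Eif4e, Eif3f, Eif3k and Eif5a were called lower relative to the whole library, and Eef2 and Eif4g1 passed the test in neither direction.

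The 7 genes of scanning and subunit joining included 1 called higher and 2 called lower, with a median log2 fold change of -0.46. Such counts, here and below, stand beside 29.9% of all genes tested called higher and 25.3% called lower. The 2 of 7 called lower are close to that share. Eif5 (mm10, chr12:111538016-111546752, plus strand) encodes the factor that triggers GTP hydrolysis by eIF2 at the start codon. Its level was 567, 513 and 317 CPM in the ruxolitinib libraries and 138, 125 and 153 CPM in the controls. All ruxolitinib libraries were above all controls, with pool 3 the lowest of the treated libraries, and Eif5 rose 3.35-fold (log2 fold change 1.75 ± 0.27, SE, adjusted p = 0.000535). Eif5b, whose product joins the ribosomal subunits, had a log2 fold change of 0.30 ± 0.19 and did not pass the test (adjusted p = 0.195).

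Eif1ax and Eif1a both encode forms of eIF1A, which keeps the scanning ribosome open. Eif1ax was at 54.1, 69.1 and 65.7 CPM in the ruxolitinib libraries and at 154, 156 and 228 CPM in the controls. It fell by 1.51 ± 0.23 on the log2 scale (adjusted p = 0.000532) relative to the whole library, without overlap between the groups, and stood at 0.43 relative to the CD8 markers (adjusted p = 0.494). Eif1a fell by 0.59 ± 0.21 (adjusted p = 0.0395), a call that was lost on leaving out any library but control pool 5. It was called higher relative to the CD8 markers, at 1.39. Reads of these near-identical genes may be split between them. Eif1, the start codon gatekeeper, had 524, 659 and 442 CPM against 569, 633 and 1144 CPM, so that its groups overlapped and control pool 6 was far above the rest (-0.53 ± 0.31, adjusted p = 0.175). Its paralog Eif1b had a log2 fold change of -0.46 ± 0.19 and did not pass the test (adjusted p = 0.0597). It passed without control pool 6 (-0.54, adjusted p = 0.0215), with protein-coding genes alone (0.0426) and with limma-voom quality weights (0.0116).

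Of the 9 genes of eIF2 and its exchange factor eIF2B, 8 were tested, and 5 were called lower and 1 higher, with a median of -0.71. The count called lower relative to the CD8 markers was 0 (against 0.445% of all genes). eIF2B recharges eIF2 with GTP and is the target of the integrated stress response, in which phosphorylated eIF2 alpha blocks it. Eif2b4 had 25.7, 37.2 and 28.2 CPM in the ruxolitinib libraries and 54.9, 66.7 and 102 CPM in the controls. Eif2b2 had 31.9, 44.9 and 42.9 CPM against 79.5, 86.6 and 78.4 CPM. Neither gene's groups overlapped, and relative to the whole library Eif2b4 fell 2.46-fold (-1.30 ± 0.27, adjusted p = 0.00292) and Eif2b2 fell 2.04-fold (-1.03 ± 0.20, adjusted p = 0.00208), while their values relative to the CD8 markers were 0.66 and 0.93. Eif2b4 overlaps Snx17 on the opposite strand by 204 bases, and whether the counting used strand is not stated in the sources used here. Eif2b5, the catalytic subunit, fell by 0.76 ± 0.19 (adjusted p = 0.0066) and Eif2b1 by 0.69 ± 0.21 (adjusted p = 0.018) relative to the whole library, and both were called higher relative to the CD8 markers, at 1.25 and 1.35. The Eif2b1 call was lost without ruxolitinib pool 1, control pool 4 or control pool 5. Eif2b3 did not pass the test with all libraries (-0.55, adjusted p = 0.211), and it was called lower by limma-voom when libraries were weighted by quality (-0.80, adjusted p = 0.0113), and by edgeR on leaving out control pool 6 (-0.88, adjusted p = 0.00642).

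The 3 subunits of eIF2 itself gave different calls. Eif2s1, which encodes the alpha subunit that the stress kinases phosphorylate, had 57.1, 82.8 and 76.6 CPM in the ruxolitinib libraries and 118, 99.1 and 76.4 CPM in the controls, an overlap by control pool 6 (-0.44 ± 0.23, adjusted p = 0.133; without that pool -0.60, adjusted p = 0.0313). Eif2s2, for the beta subunit, fell by 0.73 ± 0.18 relative to the whole library (adjusted p = 0.00745) and was called higher relative to the CD8 markers, at 1.28. Eif2s3x, the X-linked gene for the gamma subunit that binds GTP and the tRNA, had 91.1, 75.7 and 87.4 CPM against 62.5, 64.7 and 38.8 CPM. Its groups did not overlap and it was called higher (0.61 ± 0.23, adjusted p = 0.0475), but the call was lost on leaving out any of the 6 libraries, with adjusted p from 0.0501 to 0.112.

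The genes of eIF2A and eIF2D, which can bring tRNA to the ribosome without eIF2, were both below the controls in every library. Eif2d had 28.9, 36.5 and 38.9 CPM against 58.8, 54.2 and 45.6 CPM and fell by 0.60 ± 0.21 relative to the whole library (adjusted p = 0.0312). That call was lost without ruxolitinib pool 1 or 2 or control pool 4 or 5. Relative to the CD8 markers Eif2d was called higher, at 1.36, and it overlaps Rassf5 on the opposite strand by 11249 bases. Eif2a missed the threshold (-0.50 ± 0.20, adjusted p = 0.0564) and passed it without ruxolitinib pool 3 or without control pool 6; its overlap with Serp1 on the opposite strand is 72 bases.

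The 14 genes of eIF3, the scaffold on the small ribosomal subunit, included 9 called lower and 1 called higher, with a median of -0.91. With scaling to the CD8 markers, 0 were called lower (against 0.445% of all genes). Eif3i, for a WD-repeat subunit of the peripheral module, had 103 CPM in ruxolitinib pool 1, 142 CPM in pool 2 and 141 CPM in pool 3, and 344, 396 and 676 CPM in the controls. No library of either group reached the other, and the fall, 3.66-fold relative to the whole library (-1.87 ± 0.30, adjusted p = 0.000719), was the largest among the factor genes, while the value relative to the CD8 markers was 0.021. Eif3k had 165, 208 and 199 CPM against 472, 528 and 474 CPM and fell 2.57-fold relative to the whole library (-1.36 ± 0.21, adjusted p = 0.000608), with 0.62 relative to the CD8 markers.

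Eif3g, for an RNA-binding subunit, and Eif3b, for the large platform of the module that also holds eIF3I, each had a log2 fold change of -1.25 relative to the whole library, with SE of 0.26 and 0.21 and adjusted p of 0.00294 and 0.000969, and values of 0.74 and 0.73 relative to the CD8 markers that did not pass the test. The other genes called lower were Eif3e at -1.10, Eif3d, for a subunit that can itself bind caps, at -1.05, Eif3f at -0.97 and Eif3m at -0.84, with values of 0.86, 0.97, 0.96 and 1.13 relative to the CD8 markers, none of which passed the test. Eif3f, the most abundant eIF3 gene per length, had 381, 405 and 543 CPM against 877, 924 and 810 CPM. Eif3h and Eif3l, at -0.69 ± 0.37 and -0.56 ± 0.26, did not pass the test with all libraries and were called lower without control pool 6, at -1.04 and -0.80. Eif3c, for a core subunit, changed its call in the same way (-0.34 ± 0.24 with all libraries and -0.55 without that pool). Limma-voom with quality weights also called Eif3h, Eif3l and Eif3c lower, at -1.02, -0.77 and -0.57. Eif3a, for the largest core subunit, had 244, 219 and 194 CPM against 168, 166 and 152 CPM, with all ruxolitinib libraries above the controls, and did not pass the test (0.43 ± 0.20, adjusted p = 0.086).

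The genes for eIF3J, a loosely attached subunit, had opposite calls relative to the whole library. Eif3j2 had 11.8, 13.1 and 10.3 CPM in the ruxolitinib libraries and 2.16, 2.22 and 3.36 CPM in the controls, and rose 4.54-fold (2.18 ± 0.31, adjusted p = 0.000366) with the groups well apart. Eif3j1, its near-identical and more abundant paralog, had 42.5, 46.2 and 46.7 CPM against 73.2, 62.9 and 55.1 CPM. It fell by 0.50 ± 0.19 relative to the whole library (adjusted p = 0.0496), a call lost on leaving out any library but control pool 6. Relative to the CD8 markers Eif3j1 was called higher, at 1.51. How reads matching both genes were counted is not stated in the sources used here, and Eif3j1 also overlaps Spg11 on the opposite strand by 3079 bases.

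Among the 11 tested genes of the cap-binding complex eIF4F, its helicase cofactors and relatives, 3 were called lower and 1 higher, with a median of -0.47. The count called lower is close to the 25.3% of all genes, and 29.9% of all genes were called higher. Relative to the CD8 markers, 0 were called lower (against 0.445% of all genes). Eif4e, for the protein that binds the cap, had 70.2, 60.1 and 63.9 CPM against 96.4, 84.9 and 129 CPM. The groups did not overlap, and Eif4e fell 1.59-fold relative to the whole library (-0.67 ± 0.21, adjusted p = 0.0223). That call was lost on leaving out any of the 3 ruxolitinib pools. Relative to the CD8 markers Eif4e was called higher, at 1.31. Eif4e2, for a cap-binding protein linked to repression, fell by 0.76 ± 0.19 relative to the whole library (adjusted p = 0.00835). It was called higher relative to the CD8 markers, at 1.24. Eif4e3 had 27.7, 21.6 and 20.6 CPM against 20.7, 23.5 and 21.1 CPM, groups that overlapped.

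Eif4g1, for the main scaffold of eIF4F, had 219, 249 and 224 CPM against 253, 258 and 108 CPM, so that the control libraries spanned the treated ones because of pool 6 (0.16 ± 0.32, adjusted p = 0.687). Eif4g3, a second scaffold, had 95.9, 69.1 and 76.1 CPM against 45.8, 44.8 and 38.0 CPM and rose 1.87-fold without overlap (0.91 ± 0.20, adjusted p = 0.00428). Eif4g2, whose product lacks the cap-binding arm, had a log2 fold change of -0.27 ± 0.26 (adjusted p = 0.398).

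The eIF4A helicases unwind the leader of the messenger, except eIF4A3, which marks exon junctions. Eif4a1 had 377, 419 and 399 CPM against 707, 589 and 372 CPM, and control pool 6 was below all ruxolitinib libraries (-0.48 ± 0.27, adjusted p = 0.152). Without that pool Eif4a1 was called lower relative to the whole library (-0.71, adjusted p = 0.0148). With all libraries it was called higher relative to the CD8 markers, at 1.57. The pseudogene Eif4a-ps4, which may share reads with Eif4a1, had 52.4, 56.7 and 56.5 CPM against 69.5, 51.6 and 22.3 CPM and was likewise lowest in control pool 6. Eif4a2 overlapped between the groups (-0.20 ± 0.23, adjusted p = 0.483), and it shares 194 bases with Rfc4 on the opposite strand. Eif4a3 had 83.4, 95.9 and 107 CPM against 204, 221 and 334 CPM and fell 2.65-fold relative to the whole library (-1.41 ± 0.25, adjusted p = 0.00114), with 0.50 relative to the CD8 markers. The cofactor genes Eif4b (-0.49 ± 0.22) and Eif4h (-0.47 ± 0.22) were below the controls in every library and did not pass the test (adjusted p = 0.0867 and 0.092), though Eif4h did without control pool 6.

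Among the repressors that bind eIF4E and block its union with eIF4G, 1 of 3 tested was called higher, near the 29.9% of all genes, and 0 lower, with a median of 0.54. Eif4ebp1 (mm10, chr8:27260329-27276674, plus strand), for the repressor that mTOR inactivates by phosphorylation, had 37.5, 56.2 and 31.2 CPM in the ruxolitinib libraries and 14.8, 17.7 and 13.5 CPM in the controls. The lowest treated library was above the highest control, and Eif4ebp1 rose 2.71-fold (1.44 ± 0.26, adjusted p = 0.00142). Eif4ebp2 had 263, 237 and 233 CPM against 179, 190 and 138 CPM, again without overlap, and missed the threshold (0.54 ± 0.21, adjusted p = 0.0528); it passed it with RLE factors (adjusted p = 0.0441) and with DESeq2 (0.0189). Eif4enif1, for a shuttling protein that carries eIF4E, had a log2 fold change of 0.20 ± 0.18 and overlaps Drg1 on the opposite strand by 42197 bases.

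Of the genes for eIF5A, which frees ribosomes stalled on difficult peptide bonds, and eIF6, which keeps the large subunit from joining too early, 2 of 3 were called lower. Eif5a (mm10, chr11:69916714-69921958, minus strand) had 521, 799 and 638 CPM in the ruxolitinib libraries and 1733, 1915 and 1707 CPM in the controls. Every control lay above every treated library, and Eif5a fell 2.74-fold relative to the whole library (-1.45 ± 0.25, adjusted p = 0.00112), with 0.55 relative to the CD8 markers. Eif6 had 63.6, 94.9 and 87.6 CPM against 210, 239 and 283 CPM and fell 2.97-fold relative to the whole library (-1.57 ± 0.23, adjusted p = 0.000459), with 0.36 relative to the CD8 markers. The paralog Eif5a2 had 14.8, 13.3 and 14.3 CPM against 12.4, 14.1 and 27.7 CPM, where only control pool 6 was apart (-0.35 ± 0.31, adjusted p = 0.361).

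The 5 tested eEF1 genes had a median of -1.46, with 3 called lower and 0 higher. Scaled to the CD8 markers, 0 were called lower (against 0.445% of all genes). Eef1a1, the most abundant gene of all those described here, had 6015, 5883 and 7891 CPM in the ruxolitinib libraries and 10725, 9611 and 4779 CPM in the controls. Control pools 4 and 5 were above every treated library and pool 6 below, and Eef1a1 did not pass the test with that pool (-0.34 ± 0.35, adjusted p = 0.422) or without it (-0.64, adjusted p = 0.0715). Among the genes of the subunits that recharge eEF1A with GTP, Eef1b2 and Eef1g gave a tighter picture, and Eef1d did not. Eef1b2, an exchange factor, had 345, 427 and 506 CPM against 1381, 1633 and 1241 CPM. It fell 3.33-fold relative to the whole library (-1.74 ± 0.26, adjusted p = 0.000444), with 0.21 ± 0.57 relative to the CD8 markers. Eef1g, which anchors the exchange factors, had 411, 444 and 579 CPM against 1535, 1600 and 1298 CPM and fell 3.09-fold relative to the whole library (-1.63 ± 0.25, adjusted p = 0.000538), with 0.31 relative to the CD8 markers. Neither gene's groups came near each other. Eef1d, the other exchange factor, had 179, 282 and 209 CPM against 344, 377 and 165 CPM, an overlap by control pool 6 (-0.40 ± 0.33, adjusted p = 0.314; without that pool -0.70, adjusted p = 0.0286). Eef1e1, whose product belongs to the complex of tRNA synthetases despite the name, fell by 1.46 ± 0.27 relative to the whole library (adjusted p = 0.00163) and stood at 0.51 relative to the CD8 markers.

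All 3 tested genes for methyltransferases of eEF1A lysines were called lower relative to the whole library, and 0 relative to the CD8 markers (against 0.445% of all genes). Eef1akmt1 had 15.4, 19.1 and 22.5 CPM against 48.8, 51.8 and 54.3 CPM, and Eef1akmt2 had 5.04, 7.36 and 10.4 CPM against 20.7, 17.9 and 15.5 CPM. They fell by 1.44 ± 0.21 (adjusted p = 0.000444) and 1.24 ± 0.30 (adjusted p = 0.00634) relative to the whole library, with 0.48 and 0.62 relative to the CD8 markers. Eef1akmt4 was lower by the same test (-0.94 ± 0.29, adjusted p = 0.0216), with 1.01 relative to the CD8 markers; that call was lost without ruxolitinib pool 1 or 2 or control pool 5, and the gene shares 143 bases with Alg3 on the opposite strand.

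The largest change of any factor gene was in Eef2k (mm10, chr7:120842831-120907450, plus strand), the gene of the calmodulin-dependent kinase that phosphorylates eEF2 and slows elongation. Eef2k had 74.2, 99.8 and 50.8 CPM in the ruxolitinib libraries and 9.24, 6.93 and 6.59 CPM in the controls. The treated libraries varied among themselves, with pool 3 the lowest, and all were far above the controls, so that Eef2k rose 9.85-fold (3.30 ± 0.30, adjusted p = 3.47e-05). Its substrate gene Eef2 had 2892, 3182 and 3820 CPM against 3842, 3505 and 1160 CPM. Eef2 overlapped between the groups and its sign turned with control pool 6 (0.22 ± 0.41, adjusted p = 0.671; without that pool -0.17, adjusted p = 0.585). Eef2kmt, for the enzyme that methylates eEF2, had a log2 fold change of -0.29 ± 0.25 (adjusted p = 0.335) and overlaps Alg1 on the opposite strand by 761 bases.

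**Figure D3:**
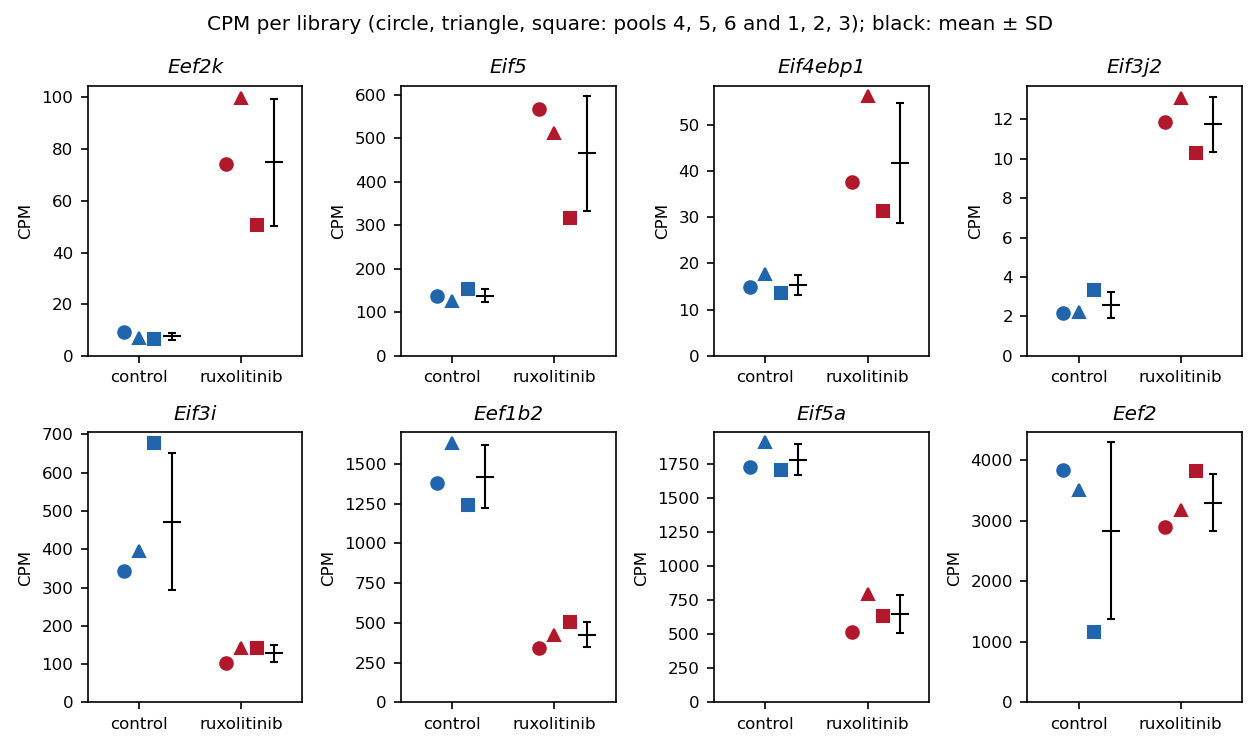
CPM of 8 factor genes in each library (y axes from 0; blue control pools 4 to 6, red ruxolitinib pools 1 to 3, black mean ± SD, n = 3). Eef2k, Eif5, Eif4ebp1 and Eif3j2 are higher in every ruxolitinib library. Eif3i, Eef1b2 and Eif5a are lower in every ruxolitinib library relative to the whole library, and were called in neither direction relative to the CD8 markers. Eef2 overlaps because control pool 6, at 1160 CPM, is below the rest.

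Ratios of counts between 2 genes of the same library do not depend on how that library is scaled, and 12 pairs of paralogs or partners were compared in this way. In 7 of the 12 the groups did not overlap. The exact two-sided permutation test gave p = 0.1 for each of these, the smallest that 3 against 3 libraries allow, and 0.171 after Benjamini-Hochberg adjustment over the 12 pairs, so that none passed the threshold and none could have. Groups without overlap were also common among single genes. All 3 ruxolitinib libraries were above all 3 controls in 35.7% of all genes tested and below them in 30.3%. No such share was computed for ratios of other gene pairs.

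The ratio of the kinase Eef2k to its substrate Eef2 was 0.0257, 0.0314 and 0.0133 in the ruxolitinib libraries and 0.00241, 0.00199 and 0.00571 in the controls, a 7.32-fold difference (2.87 ± 0.60 on the log2 scale). The ratio of the repressor Eif4ebp1 to its target Eif4e was 0.534, 0.934 and 0.489 against 0.154, 0.209 and 0.105, a 4.16-fold difference (2.06 ± 0.41). In both pairs the inhibitor's RNA was more abundant relative to its target in every treated library. Within the repressors, the ratio of Eif4ebp2 to Eif4ebp1 was 1.81-fold lower in the ruxolitinib libraries (-0.86 ± 0.27).

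Paralog pairs were compared in the same way. Eif3j2 was at 0.279, 0.283 and 0.221 of the Eif3j1 count in the ruxolitinib libraries and at 0.0298, 0.0358 and 0.0615 in the controls, a 6.42-fold difference (2.68 ± 0.33). Eif5a2 stood at 0.0286, 0.0167 and 0.0225 of Eif5a against 0.00720, 0.00739 and 0.0162, a 2.32-fold difference (1.21 ± 0.45) in which ruxolitinib pool 2 and control pool 6 nearly met. Eif1ax was at 1.31, 1.96 and 1.75 times Eif1a against 2.87, 3.34 and 3.20 times (-0.92 ± 0.19), and the cap-binding paralog Eif4e3 was 1.67-fold higher relative to Eif4e (0.74 ± 0.23). The groups overlapped for Eif4a2 to Eif4a1 (p = 0.6, exact permutation test), Eif4g3 to Eif4g1 (p = 0.3), Eif4g2 to Eif4g1 (p = 0.7) and Eif4e2 to Eif4e (p = 0.7), and the pair of Eef1a2 and Eef1a1 carries no information with 1 read of Eef1a2.

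**Figure D4:**
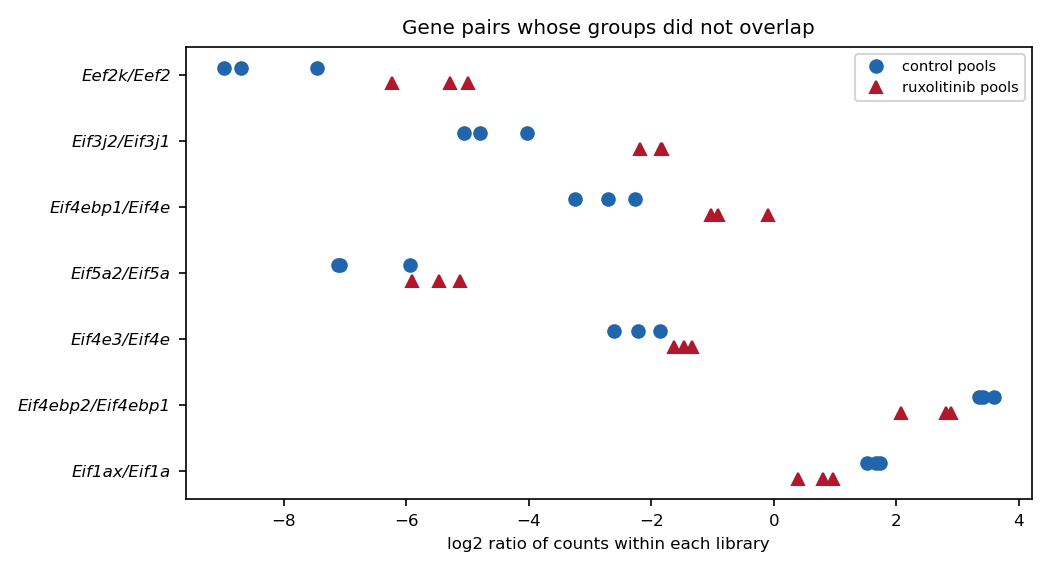
Log2 ratio of counts within each library (x axis) for the 7 gene pairs whose groups did not overlap (y axis); red triangles are the 3 ruxolitinib pools and blue circles the 3 control pools. The differences of group means are largest for Eef2k over Eef2 (2.87) and Eif3j2 over Eif3j1 (2.68), and the ratios do not change with library scaling.

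Other genes of the translation pathway were read from 7 lists with 70 genes, of which 67 were tested, 14 were called higher and 15 lower. Neither count was above the share of all tested genes called in that direction, 29.9% higher and 25.3% lower. Among the kinases and phosphatase subunits that act on eIF2 alpha, 4 of 7 were called higher and 1 lower. Eif2ak1, for the haem-regulated kinase known from red cell precursors, had 252, 313 and 162 CPM against 50.1, 51.8 and 29.2 CPM (2.47 ± 0.32, adjusted p = 0.000235). Ppp1r15a, for the subunit that directs the opposing phosphatase to eIF2 alpha, had 328, 638 and 275 CPM against 91.3, 100 and 67.9 CPM (2.26 ± 0.34, adjusted p = 0.000532). Both were without overlap, and pool 3 was again the lowest treated library. Eif2ak4, for the kinase that senses uncharged tRNA, rose by 1.28 ± 0.26 (adjusted p = 0.00263). Eif2ak3, for the kinase of the endoplasmic reticulum, was called higher at 0.63 and Eif2ak2, for the kinase activated by double-stranded RNA, lower at -0.66 relative to the whole library. The same libraries had the higher erythroid and macrophage marker sums given above, whose part in these values was not tested.

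Of 9 tested targets of the integrated stress response, 4 were called higher and 1 lower. Atf3 rose by 2.85 ± 0.31 (adjusted p = 0.000102) and Sesn2 by 2.16 ± 0.35 (adjusted p = 0.000756), and Asns, for asparagine synthetase, and Slc7a11, for a cystine transporter, were also called higher. Psat1, of serine synthesis, fell by 1.80 ± 0.23 (adjusted p = 0.000237) relative to the whole library, with 0.091 relative to the CD8 markers. Atf4 and Ddit3, the central transcription factors of that response, had log2 fold changes of 0.50 and 0.52 and passed the test in neither direction, and Trib3, Chac1 and Vldlr were too low to test.

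Signalling to the cap had 4 of 13 genes called higher, close to the 29.9% of all genes, and 1 lower. Mknk1, for a kinase of eIF4E, rose by 1.97 ± 0.25 (adjusted p = 0.0002), and Tsc2, for a brake on mTOR, by 1.31 ± 0.21 (adjusted p = 0.000679); Tsc1 and Rptor were the other genes called higher. Rps6, a ribosomal protein that S6 kinase phosphorylates, had 778, 970 and 1135 CPM against 2804, 2859 and 2520 CPM and fell by 1.51 ± 0.26 relative to the whole library (adjusted p = 0.000946), with 0.43 relative to the CD8 markers. Mtor itself had a log2 fold change of 0.43 and passed the test in neither direction.

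The enzymes that modify eIF5A and eEF2 had 5 of 8 called lower (against 25.3% of all genes) and 0 higher (against 29.9%) relative to the whole library. Relative to the CD8 markers 0 were called lower (against 0.445%). Dhps and Dohh make the hypusine residue on which eIF5A depends. Dhps had 20.0, 22.2 and 25.1 CPM against 50.9, 51.9 and 83.4 CPM and fell by 1.47 ± 0.25 (adjusted p = 0.000911) relative to the whole library, with 0.44 relative to the CD8 markers. Dohh had 11.0, 21.1 and 13.4 CPM against 31.1, 42.4 and 23.8 CPM and fell by 1.10 ± 0.31 (adjusted p = 0.0129) relative to the whole library, with 0.94 relative to the CD8 markers; without ruxolitinib pool 1 its adjusted p was 0.055. Eif5a and both of its modifying enzymes were thus called lower relative to the whole library, and none of them relative to the CD8 markers. Dph3, of the diphthamide pathway that modifies eEF2, fell by 1.03 ± 0.20 (adjusted p = 0.0019) relative to the whole library and stood at 0.94 relative to the CD8 markers.

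In the remaining lists few genes moved. Among 12 genes of the messenger 3′ end and auxiliary initiation, Pabpc4, for a poly(A)-binding protein, rose by 1.71 ± 0.37 (adjusted p = 0.00349), while Mcts1, for the partner of DENR in reinitiation, and Abcf1 fell by 1.48 ± 0.22 and 0.84 ± 0.19 relative to the whole library, with 0.51 and 1.16 relative to the CD8 markers. Among 8 genes of termination and rescue, Gspt2, for a form of release factor eRF3, was called higher (1.84 ± 0.44), and Etf1, for the release factor eRF1 (-0.91 ± 0.23), and Hemk1, for a methyltransferase of release factors (-1.38 ± 0.45), lower relative to the whole library, with 1.06 and 0.39 relative to the CD8 markers. Of 10 mitochondrial translation factors, 3 were called lower, close to the 25.3% of all genes, and 0 higher relative to the whole library. Tsfm, for the exchange factor of mitochondrial EF-Tu, had 14.5, 20.2 and 18.2 CPM against 65.3, 83.7 and 108 CPM (-2.28 ± 0.25, adjusted p = 0.000101). Tsfm was the largest fall of the 7 lists and, unlike the other falls named here, kept a negative value relative to the CD8 markers, -0.35, which did not pass the test there (adjusted p = 0.583). Mrrf, for the recycling factor, and Guf1 had -0.88 each, with 1.10 and 1.12 relative to the CD8 markers.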

How the data were processed

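RNA was sequenced in 6 pools, 3 per group, and groups were taken from the sample titles. Gene values are deposited as whole-number read counts that the authors did not normalise. Reads were aligned with HISAT2 2.0.5 to mm10, per the submitters' processing notes. The counter, the annotation, the use of strand and the handling of multi-mapping reads are not stated in the sources used here, so counts of overlapping genes and near-identical paralogs are uncertain. Nothing says how the pools were made beyond the number of mice, so p-values measure the spread between pools.

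The test was the robust quasi-likelihood test of edgeR 4.0.16 (R 4.3.3) after filterByExpr and TMM scaling, with no covariate and Benjamini-Hochberg adjustment over 13480 genes. CPM is the count per 1000000 of the library total times its TMM factor, and the SE is the log2 fold change over the square root of F. Library totals of 13829808 to 17708196 make values near 1 CPM imprecise. Ratios used counts plus 0.5. Alternatives were RLE, upper-quartile and total-count scaling, scaling to 17 CD8 markers, removal of haemoglobin genes, no filter, at least 1 CPM in 3 libraries, protein-coding genes alone, DESeq2 1.42.0, limma-voom (limma 3.58.1) with and without quality weights, a 2-fold minimum, a pseudocount of 5 for ratios, and leaving out each pool.

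Named genes were, in each role group, the 2 called genes with the smallest p in each direction and the most abundant per length, a set of core factors, up to 3 called genes per related list, and genes of pairs that did not overlap. Others named in the text, among them the remaining eIF3 and eIF2B subunits, were chosen after their values were seen. The members, lists and pairs were chosen with earlier results of these data known. On simulated counts (13224 genes, 3 against 3 libraries), only 96 genes were changed 2-fold and 98 changed 4-fold. There edgeR called 22 of the 96, 77 of the 98 and 7 unchanged genes. In the data, 4037 of 13480 genes were called higher and 3407 lower. The share of changes that edgeR finds with that many genes called was not tested. Promoter windows come from RefSeq (GRCm38.p6).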

Additional observations from a re-analysis of the deposited data

How the results depend on the processing

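No paired analysis was possible because the ruxolitinib and control pools share no replicate numbers. Scaling to the CD8 markers gave 9604 genes called higher and 60 lower, so that 99.4% of calls were higher against 54.2% as reported; the factor genes then had 39 higher and 0 lower and the related genes 52 and 0. A 2-fold minimum left 17 factor genes and 8 related genes called lower, against 17.5% of all genes. With each pool left out in turn, 22 to 37 factor genes and 9 to 18 related genes were called lower, the 9 without ruxolitinib pool 1. The share of all genes called lower in those fits ran from 16.4% to 27.4%. In each of them 5 factor genes were called higher, against 24.6% to 32.1% of all genes. Limma-voom with quality weights called 40 factor genes lower, where the share of all genes also rose, to 32.2%. Of 34 called factor genes, 27 kept the call in all 6 fits with a pool left out.

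Under CD8 scaling these named genes turned positive, while Tsfm stayed at -0.35: Abcf1 to 1.16, Dhps 0.44, Dohh 0.94, Dph3 0.94, Eef1a1 1.65, Eef1akmt1 0.48, Eef1akmt2 0.62, Eef1b2 0.21, Eef1g 0.31, Eif1 1.47, Eif1a 1.39, Eif1ax 0.43, Eif2a 1.47, Eif2b2 0.93, Eif2b4 0.66, Eif2d 1.36, Eif2s1 1.55, Eif3f 0.96, Eif3i 0.021, Eif3j1 1.51, Eif3k 0.62, Eif4a1 1.57, Eif4a2 1.76, Eif4a3 0.50, Eif4e 1.31, Eif4e2 1.24, Eif5a 0.55, Eif5a2 1.58, Eif6 0.36, Etf1 1.06, Guf1 1.12, Hemk1 0.39, Mcts1 0.51, Mrrf 1.10, Psat1 0.091 and Rps6 0.43. The scaling itself, which shifts all genes, sets this direction. No called factor gene changed sign under RLE, upper-quartile, total-count or haemoglobin-free scaling.

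With quality weights, limma-voom gave -0.11 for Eef2, 0.049 for Eif4a2 and -0.079 for Eif4g1; the cause was not tested. With a pool left out, values ran from -0.17 to 0.52 for Eef2, -0.36 to 0.039 for Eif4a2, -0.16 to 0.37 for Eif4g1 and -0.56 to 0.081 for Eif5a2, each crossing 0 without control pool 6, and from -0.018 (without ruxolitinib pool 1) to 0.18 for Eif4e3. The log2 difference of the ratio Eif4g2/Eif4g1 ran from -0.84 to 0.13 and that of the ratio Eif4e2/Eif4e from -0.37 to 0.0799. Genes of a few CPM, such as Eif3j2 in the controls, are limited by depth.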
